A study of Homo sapiens with 8 samples.

Results

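The mitosis and spindle genes examined here are 39 genes chosen by symbol, and all 39 were found among the 54261 genes of the deposited count table. They encode the cyclins and kinases that bring a cell into mitosis, the Aurora kinases and their partners, the kinetochore and its checkpoint, the motors that build the spindle, and the proteins that divide the cell. Cyclin B1 with CDK1 drives entry into mitosis, kinetochores then attach chromosomes to spindle microtubules, and the spindle checkpoint holds back the anaphase-promoting complex, a ubiquitin ligase, until every chromosome is attached. The complex with CDC20 then marks cyclin B1 and securin for destruction, so that the sister chromatids part and the cell divides. Transcripts of most of these genes accumulate late in the cell cycle, in G2 and mitosis, and in colorectal cancer (CRC) several of them, MKI67 above all, serve as markers of proliferating cells.

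Total RNA depleted of ribosomal RNA was sequenced from 8 cultures of human cell lines, with 1 library each. By their labels, NCM460 and HIEC6 (HIEC-6) come from normal epithelium of the intestine, while HCT8, HCT116 and DLD1 come from CRC. The CRC lines were sequenced untreated and, in 3 further libraries, with hypoxia treatment. All cultures were labelled passage 5 and were grown in DMEM with fetal bovine serum, and neither the labels nor the methods give the oxygen level or the length of the hypoxia treatment. Each replicate was thus another line. A p-value measured the spread between lines or, where the line was a block, that of the treatment difference between lines. In bulk RNA fewer mitotic cells cannot be told apart from less RNA of these genes per cell.

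Total counts lay between 45519306 and 57374239 per library, and the floor of 3 counts corresponded to 0.0523 to 0.0659 CPM (counts scaled to a common library total, by column total), which covers counting error only. Of the 11 genes of a hypoxia response list, 11 had a positive log2 fold change in the treated CRC libraries in both fits described below, and edgeR called 7 with the cell line as a block (median 3.26) and 0 without it (median 3.63). The DLD1 and HCT116 hypoxia libraries and NCM460 carried 2 run labels (codes in the sample descriptions), the untreated and the treated CRC libraries shared none, and run and treatment cannot be told apart. HCT116 under hypoxia stood apart in composition, since 10 genes took 13.1% of its counts against 6.03% to 8.86% in the other libraries. Its TMM factor, edgeR's correction for composition, was 0.790. Within HCT116, TMM multiplied every ratio of hypoxia to untreated by 1.28, and 11 of the 39 genes turned from below to above 1 by it (CCNB2, CDC20, PLK1, BUB1, TTK, CENPA, KIF2C, MKI67, INCENP, HMMR and DLGAP5). Values are by column total unless TMM is named. The NCM460 library resembled HCT116, with a correlation across genes of 0.989 against 0.874 to 0.953 between the other untreated pairs. The NCM460 and HCT116 libraries differed beyond sampling noise, with a chi-square of 93.1 per gene against 252 to 863 between the other untreated pairs. No line had 2 cultures under the same condition, so this value cannot tell 2 lines from 2 cultures of 1 line. HIEC6 had KRT8 at 4289.5 CPM and KRT18 at 3725 CPM but EPCAM at 0.176 CPM, CDH1 at 3.03 CPM and VIM at 1223 CPM. Of its 13 epithelial markers 4 lay at or under the floor, against 0 to 3 in the other libraries. Its summed epithelial markers reached 8089 CPM, within the 5026 to 14712 CPM of the other libraries. Its summed mesenchymal markers, VIM among them, reached 2200 CPM against 20.9 to 196 CPM in the other libraries. One protocol text names a brain region. Of 8 brain markers, 2 to 6 lay at or under the floor in each library, and GFAP, AQP4 and MOG were between 0 and 0.0957 CPM. MBP lay between 10.8 and 118 CPM in every library, while SYT1 was above 1.5 CPM only in NCM460 and in the HCT116 libraries, where GRIN1 also had 6.61 to 14.8 CPM. Of 5 immune markers, 2 or 3 lay at or under the floor in each library, CD3E of T cells in all of them, whereas CD68 had 1.14 to 20.6 CPM.

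Promoters of mitotic genes are known for a CHR element (cell cycle genes homology region), bound by the DREAM and MuvB complexes, and for CCAAT boxes, bound by NF-Y, and the windows shown are those of the genes at either end of the hypoxia comparison and of MKI67. Promoter windows from RefSeq (GRCh38.p14, 250 bases before to 50 after a gene's start) were matched for 32 of the 39 genes, and AURKA, BUB3, TTK, TPX2, BIRC5, UBE2C and FOXM1 had no entry. TTTGAA or TTCGAA on either strand, the CHR-type letters, was found for 26 of the 32 genes (81.2%), against 19.5% of 27305 gene symbols. Within 50 bases of the start on either side the shares were 23 of 32 genes (71.9%) and 6.24%. CCAAT on either strand was found for 26 of 32 genes against 39.7% of all symbols, and both motifs stood in 1 window for 22 of 32 genes (68.8%) against 7.85%. The lines below give 120 bases before to 50 bases after the start, 5′ to 3′ on the gene's strand, with both motifs in capitals in either orientation (TTTGAA reads TTCAAA and CCAAT reads ATTGG on the other strand). They lie at chr5:69167030-69167199 (CCNB1, plus strand), chr4:120066799-120066968 (MAD2L1, minus), chr2:168890381-168890550 (SPC25, minus), chr1:214603075-214603244 (CENPF, plus), chr3:172750606-172750775 (ECT2, plus, the first of 2 entries), chr7:36389742-36389911 (ANLN, plus) and chr10:128126374-128126543 (MKI67, minus).
CCNB1: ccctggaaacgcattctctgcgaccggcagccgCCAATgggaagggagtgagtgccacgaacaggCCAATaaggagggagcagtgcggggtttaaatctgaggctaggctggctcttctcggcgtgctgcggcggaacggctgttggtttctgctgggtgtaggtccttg
MAD2L1: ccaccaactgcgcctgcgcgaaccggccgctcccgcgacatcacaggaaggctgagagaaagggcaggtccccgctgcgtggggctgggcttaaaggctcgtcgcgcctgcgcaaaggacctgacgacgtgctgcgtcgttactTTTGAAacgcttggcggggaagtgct
SPC25: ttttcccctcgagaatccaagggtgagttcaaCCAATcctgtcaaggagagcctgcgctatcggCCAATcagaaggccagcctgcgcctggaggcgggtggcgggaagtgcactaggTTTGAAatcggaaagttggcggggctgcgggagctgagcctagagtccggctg
CENPF: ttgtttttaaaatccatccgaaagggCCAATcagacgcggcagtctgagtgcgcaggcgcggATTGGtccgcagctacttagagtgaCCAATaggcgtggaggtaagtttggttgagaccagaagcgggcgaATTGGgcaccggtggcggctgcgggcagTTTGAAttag
ECT2: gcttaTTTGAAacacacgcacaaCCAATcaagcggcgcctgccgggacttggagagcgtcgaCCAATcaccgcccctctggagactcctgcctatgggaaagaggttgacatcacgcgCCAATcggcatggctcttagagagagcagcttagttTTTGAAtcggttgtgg
ANLN: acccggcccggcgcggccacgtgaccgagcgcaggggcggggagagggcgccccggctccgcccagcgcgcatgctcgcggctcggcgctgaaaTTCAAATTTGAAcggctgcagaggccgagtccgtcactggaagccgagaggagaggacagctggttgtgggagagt
MKI67: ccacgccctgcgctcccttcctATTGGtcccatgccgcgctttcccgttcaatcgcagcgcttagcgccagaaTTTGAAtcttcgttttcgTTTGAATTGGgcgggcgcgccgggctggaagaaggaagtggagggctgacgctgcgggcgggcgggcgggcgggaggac
The windows of CCNB1 and SPC25 each held a pair of CCAAT boxes, and SPC25 also held TTTGAA across its start. No CHR-type letters were found in the window of CCNB1 and no CCAAT in that of ANLN, where TTCAAA and TTTGAA stood side by side. In MKI67 a TTTGAA overlapped ATTGG, and such overlaps occurred 2 times among the members. Both motifs were absent from the windows of CENPE and KIF2C. These matches describe letters in these windows and say nothing about binding.

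**Figure D1:**
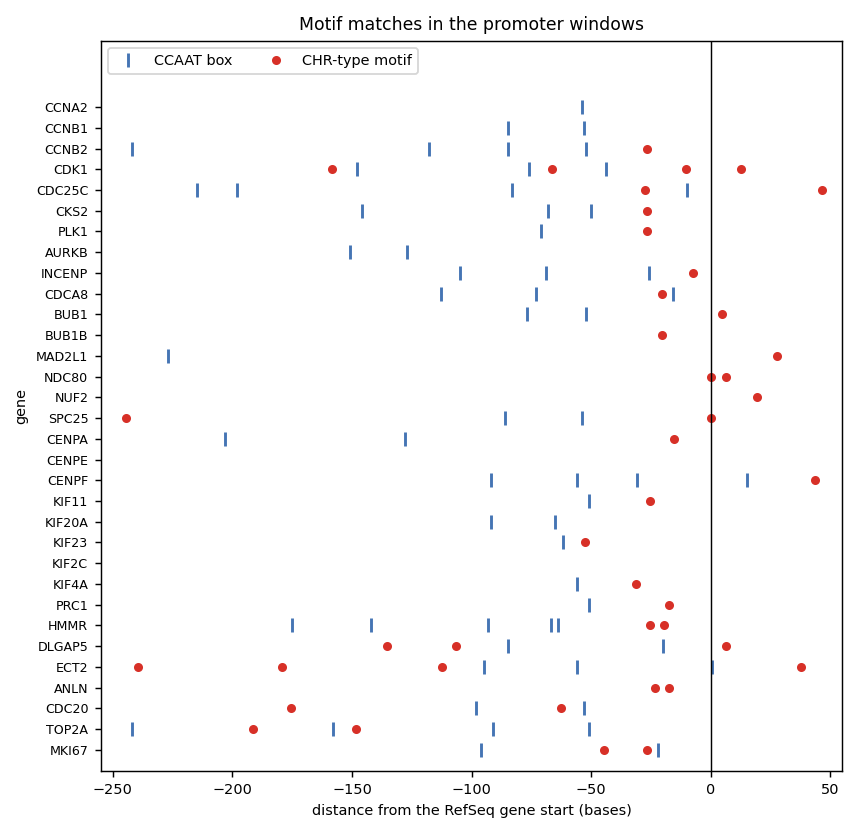
Positions of CCAAT boxes (blue bars) and CHR-type motifs (red points) in the promoter windows of the 32 matched genes, with distance from the RefSeq gene start in bases on the horizontal axis and 1 gene per row. CHR-type motifs crowd within 50 bases of the start, where 23 of 32 genes had 1, and the rows of CENPE and KIF2C are empty.

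Per kilobase of canonical transcript, CDC20 was the highest member in the untreated CRC lines with 155 ± 3.71 CPM per kb (SD, n = 3 lines), followed by CCNB1 with 114 ± 22.3 and TPX2 with 98.5 ± 7.51 CPM per kb. CCNB1 and TPX2 lay within 1 SD of each other, and CDC20 lay above both. The lowest members were SPC25 with 2.86 ± 0.703 and CENPE with 3.67 ± 0.303 CPM per kb. The 39 genes together took 0.446% to 0.520% of counts in the untreated CRC lines, 0.377% to 0.523% under hypoxia, 0.409% in NCM460 and 0.645% in HIEC6. Among the 8 libraries HIEC6 had the highest CPM for 19 of the 39 genes and HCT116 under hypoxia the lowest for 24. After TMM these counts were 25 and 6, HCT8 under hypoxia was the lowest for 15, and the summed CPM of the 39 genes in HCT116 was 4771 under hypoxia against 4407 untreated. After TMM, the SD of log2 CPM between the 3 untreated CRC lines was largest for TOP2A, which relieves DNA tangles, at 0.66, followed by KIF11, the motor that separates the spindle poles, at 0.56 and FOXM1, a transcription factor of G2 genes, at 0.46.

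**Figure D2:**
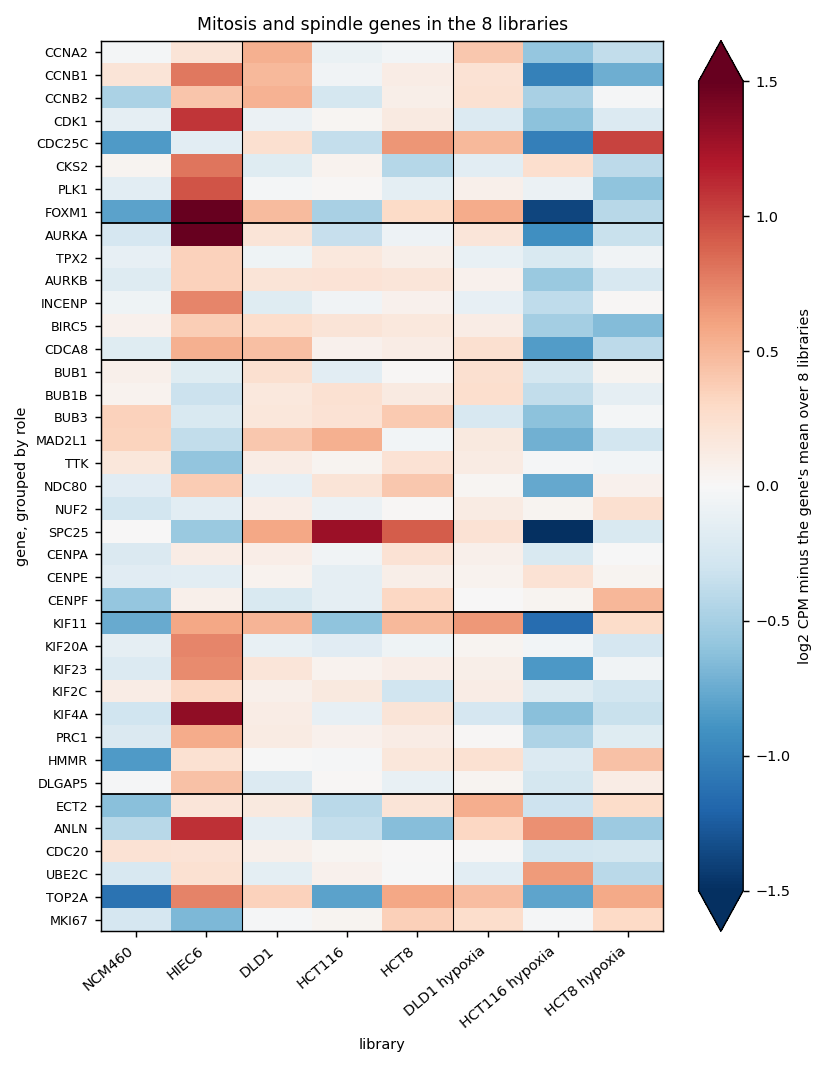
Log2 CPM of each gene minus its mean over the 8 libraries, with genes in rows grouped by role and libraries in columns, on a color scale that ends at 1.5 in either direction. The HIEC6 column is red for most genes but blue for most of the checkpoint block, where NDC80, CENPA and CENPF lie above their means. The HCT116 hypoxia column is the bluest on this column total scale.

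Hypoxia was compared with no treatment over the 6 CRC libraries to see whether mitotic genes differed with the treatment, and no member was called. Without the cell line as a block, edgeR's quasi-likelihood test called 0 of 21045 genes (0%), with 607 genes (2.88%) and 0 members at an unadjusted p under 0.05. With the line as a block, which the same lines in both groups call for, it called 200 genes (0.95%, 156 higher and 44 lower) and again 0 of the 39 members. The blocked fit put 4 of the 39 members at an unadjusted p under 0.05, where 18.5% of all genes were, namely SPC25, CCNB1 and BUB3 with lower and ANLN with higher values under hypoxia. DESeq2 called 0 members as well, both without the block (55 genes in all, 0.261%) and with it (1666 genes, 7.92%). The median log2 fold change of the members was −0.06 with the block against 0.03 over all genes. Of the members, 17 were positive and 22 negative, where 52.2% of all genes were positive. Over all alternatives the lowest adjusted p was 0.0767 for CCNB1, 0.104 for BUB3, 0.109 for SPC25 and 0.139 for ANLN, and the highest was 0.9999 for each.

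On the column total scale, 17 of the 39 genes were lower under hypoxia in all 3 lines, where 31.2% of all genes were, and 5 were higher in all 3 (NUF2, CENPF, ECT2, ANLN and CKS2), where 17% were. After TMM the counts were 13 genes (background 25.2%) and 10 genes (24%). Leaving the HCT116 pair out, 18 genes were lower in both DLD1 and HCT8 (background 35.9%) and 9 were higher (32.5%). The 3 treated libraries lay below the 3 untreated ones without overlap for CDK1, AURKB, BUB3, SPC25, KIF4A, BIRC5 and PRC1, 7 of 39 genes where 7.93% of all genes did so. After TMM 4 remained (CDK1, BUB3, SPC25 and KIF4A, background 5.9%). No member lay above without overlap on the column total scale (background 3.53%), while NUF2 and HMMR did so after TMM (4.95%).

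The lines differed from each other. In DLD1 all 39 genes stayed within 1.5-fold of the untreated library (background 9.37% of genes at least 1.5-fold higher and 5.53% lower), with a median log2 ratio of 0.01. In HCT8, 4 genes were at least 1.5-fold lower (CCNB1, FOXM1, BIRC5 and SPC25) and 0 higher, against 13.1% and 16.1% of all genes, and the members' median was −0.22 where that of all genes was 0.01. In HCT116, 13 genes were at least 1.5-fold lower and 1, ANLN, higher (background 32.3% and 11.9%), but the median of all genes also lay at −0.27 and that of the members at −0.34. After TMM the HCT116 counts were 3 lower and 3 higher (20.5% and 20.7%), with a member median of 0.02. At 2-fold by column total and with a pseudocount of 0.5 CPM, 2 genes were lower in HCT116, SPC25 and MAD2L1 (background 15.4%), and 0 in HCT8 (3.9%). The HCT8 count rests on that pseudocount. SPC25 had a plain ratio of 0.454 in HCT8, and with a pseudocount of 0.1 CPM 1 gene was lower there (8.02%). With 1 library per condition in each line, these ratios have no replicate check and no test.

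**Figure D3:**
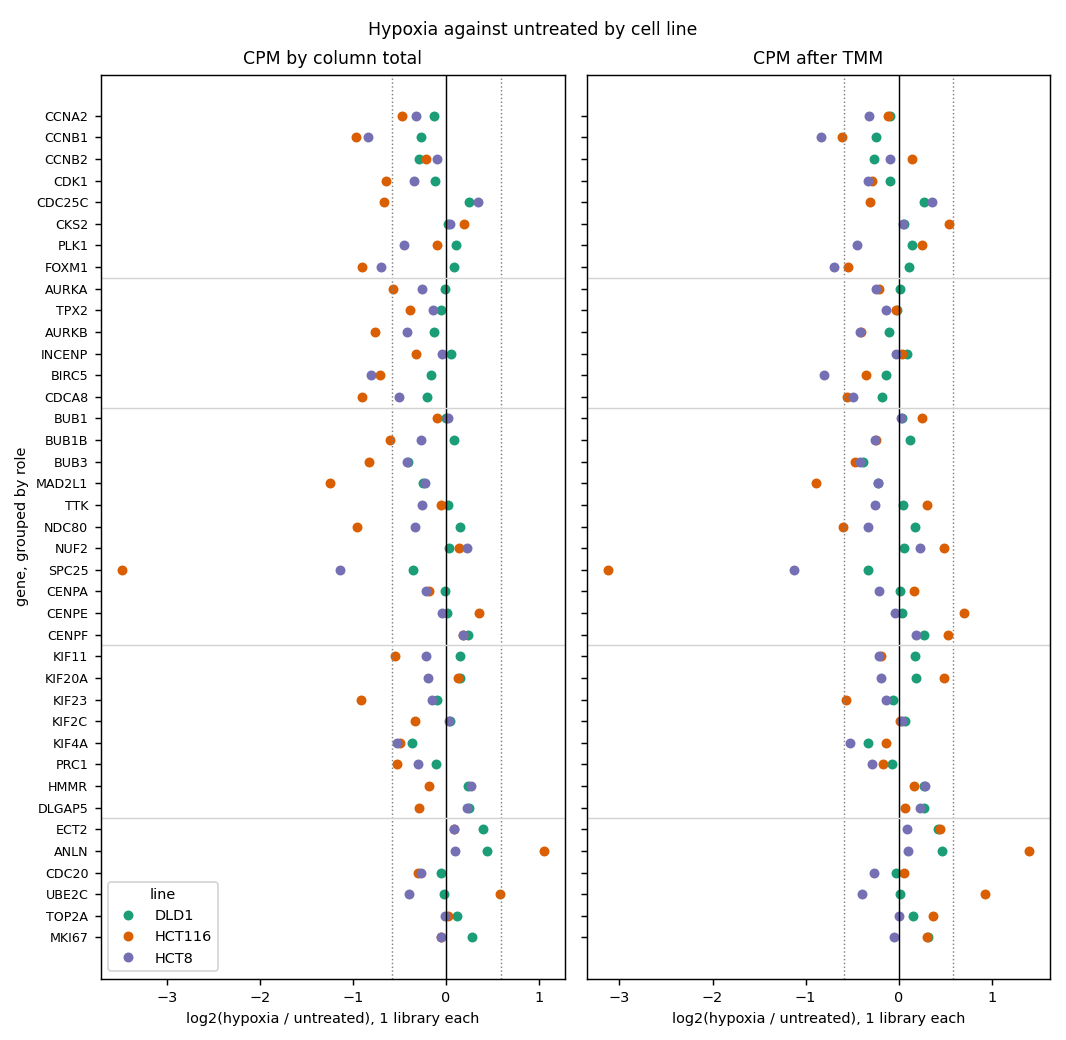
Log2 ratio of CPM under hypoxia to untreated for each gene in DLD1, HCT116 and HCT8, by column total on the left and after TMM on the right, with dotted lines at 1.5-fold. DLD1 points lie within the dotted lines, SPC25 in HCT116 is the farthest point on the left and ANLN in HCT116 the farthest on the right.

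Among the mitotic cyclins, CDK1 and its regulators, CCNB1 differed most. CCNB1, the cyclin that activates CDK1 at mitotic entry, had 281 CPM in DLD1, 194 CPM in HCT116 and 217 CPM in HCT8 without treatment, and 233, 99.4 and 121 CPM in the same lines under hypoxia. It was lower in each line, most in HCT116 and HCT8, although DLD1 under hypoxia lay above both other untreated lines. Its log2 fold change with the block was −0.56 (SE 0.19, adjusted p = 0.171 by edgeR with Benjamini-Hochberg adjustment) and −0.50 without it. CDK1, the kinase itself, had 97.2, 105 and 113 CPM untreated and 89.4, 67.5 and 89.5 CPM under hypoxia, in the order DLD1, HCT116, HCT8 used from here on. The CDK1 groups did not overlap, and the blocked log2 fold change was −0.23 (SE 0.17, edgeR adjusted p = 0.504). CCNA2 and CCNB2, the other cyclins of the list, had ratios of CPM under hypoxia to untreated between 0.719 and 0.931, although CCNB2 reached 1.10 in HCT116 after TMM.

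PLK1, a kinase of mitotic entry and spindle assembly, had 154, 159.7 and 142 CPM untreated and 167, 149 and 104 CPM under hypoxia. HCT8 alone stood clearly lower, and PLK1 in HCT116 turned from a ratio of 0.932 to 1.19 after TMM. FOXM1 had 170.1, 87.6 and 149 CPM untreated and 180.3, 47.0 and 91.7 CPM under hypoxia, higher in DLD1 and lower in the other 2 lines, with a blocked log2 fold change of −0.37 (SE 0.21, edgeR adjusted p = 0.383). CKS2, a small CDK-binding subunit, had 35.0, 41.3 and 29.4 CPM untreated and 35.7, 47.0 and 30.3 CPM under hypoxia, and the groups overlapped. CDC25C, the phosphatase that removes the inhibitory phosphates of CDK1, had ratios of 1.18 in DLD1, 0.629 in HCT116 and 1.27 in HCT8, and 0.805 in HCT116 after TMM.

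The Aurora kinases and the chromosomal passenger complex were lower under hypoxia for all 6 genes in HCT116 and in HCT8, and for 5 of 6 in DLD1, where 64.9%, 49.2% and 49.96% of all genes were lower. After TMM the counts were 5, 6 and 4 (49.7%, 48.6% and 47.1%), and the group was drawn up with values in view. AURKB, the kinase of the passenger complex, had 62.3, 62.7 and 62.0 CPM untreated and 56.9, 37.0 and 46.2 CPM under hypoxia. By column total the untreated lines were close to each other at 62.3 ± 0.382 CPM (SD, n = 3 lines) and the treated ones lay below them at 46.7 ± 9.95 CPM, with a blocked log2 fold change of −0.30 (SE 0.18, edgeR adjusted p = 0.406). BIRC5 (survivin), which targets that complex to centromeres, had 169, 160.4 and 156 CPM untreated and 151, 98.3 and 89.0 CPM under hypoxia, again with no overlap, and a blocked log2 fold change of −0.43 (SE 0.19, edgeR adjusted p = 0.285). AURKA, the kinase of the spindle poles, had 93.6, 64.4 and 77.8 CPM untreated and 92.8, 43.4 and 65.2 CPM under hypoxia, and its groups overlapped. CDCA8 (borealin) had ratios of 0.865, 0.533 and 0.706, and those of INCENP, the scaffold of the complex, and of TPX2, the activator of AURKA, lay between 0.765 and 1.04.

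The checkpoint and kinetochore genes held the largest difference, that of SPC25, beside others near 0. SPC25, a subunit of the NDC80 complex that binds microtubules, had 2.97, 4.84 and 3.72 CPM untreated and 2.32, 0.433 and 1.69 CPM under hypoxia, which in counts were 152, 253 and 196 against 133, 24 and 77. Every treated library lay below every untreated one, and in HCT116 the ratio was 0.0895 (95% exact binomial interval 0.0563 to 0.136, counting error only) and 0.115 after TMM. The blocked log2 fold change was −1.46 (SE 0.57, edgeR adjusted p = 0.227), and in fits with and without the block it ranged from −2.09 to −0.74 as single libraries or lines were left out. SPC25 was the lowest member of the list in every library, so that its values rest on the fewest counts. Of the other subunits, NDC80 had ratios of 1.11, 0.517 and 0.791, and NUF2 had 1.02, 1.10 and 1.16. SPC24, the partner of SPC25 and not a member of the list, had 29.5, 23.8 and 26.5 CPM untreated and 41.1, 5.24 and 33.2 CPM under hypoxia. It was thus far lower in HCT116 alone, with a ratio of 0.220 (0.282 after TMM), and higher in DLD1 and HCT8.

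BUB3, a checkpoint protein that brings BUB1 and BUBR1 to kinetochores, had 239, 247 and 278 CPM untreated and 180.0, 139 and 207 CPM under hypoxia. It was lower in every line on both scales, with ratios of 0.753, 0.563 and 0.746 and, after TMM, of 0.770, 0.721 and 0.751. The blocked log2 fold change was −0.42 (SE 0.16, edgeR adjusted p = 0.227). MAD2L1, the inhibitor of CDC20 in the checkpoint, had 77.9, 85.2 and 57.3 CPM untreated and 65.4, 35.9 and 48.9 CPM under hypoxia. The groups overlapped through the low untreated HCT8 value, and the blocked log2 fold change was −0.44 (SE 0.20, edgeR adjusted p = 0.293). BUB1, the kinase of the same checkpoint, had 136, 103 and 116 CPM untreated and 136, 95.9 and 118 CPM under hypoxia, with ratios within 0.933 and 1.01, although TMM turned that of HCT116 from 0.933 to 1.19. CENPF, a large kinetochore protein of G2 and mitosis, had 162, 173 and 236 CPM untreated and 191, 196 and 267 CPM under hypoxia. It was higher in each of the 3 lines on both scales although the groups overlapped, with a blocked log2 fold change of 0.33 (SE 0.17, edgeR adjusted p = 0.347). BUB1B (BUBR1), TTK (MPS1), CENPA, the centromeric histone, and CENPE, a kinetochore motor, had ratios between 0.661 and 1.27. After TMM the HCT116 ratios were 0.846 for BUB1B, 1.23 for TTK, 1.13 for CENPA and 1.63 for CENPE.

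Among the spindle motors and microtubule proteins, KIF4A, a chromokinesin, and PRC1, which bundles the central spindle, were lower in each line without overlap by column total, with KIF4A ratios of 0.777, 0.710 and 0.692 and PRC1 ratios of 0.929, 0.696 and 0.814. After TMM the HCT116 ratios were 0.908 and 0.891, and the PRC1 groups overlapped. Exons of other genes, among them the antisense PRC1-AS1, cover 61.9% of those of PRC1, and the strand setting of the counting is not known. KIF20A, a motor of cytokinesis, had 90.8, 87.6 and 94.4 CPM untreated and 101, 95.9 and 82.4 CPM under hypoxia, so that DLD1 and HCT116 (1.40 after TMM) were higher and HCT8 lower. KIF23 had its lowest ratio, 0.530, in HCT116 (0.678 after TMM). HMMR and DLGAP5, which bind spindle microtubules, had ratios of 1.17 to 1.21 in DLD1 and HCT8 and of 0.879 and 0.819 in HCT116, where TMM turned them to 1.13 and 1.05.

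Among the genes of cytokinesis and anaphase ANLN had the highest blocked log2 fold change of all members, followed by CENPF of the kinetochore and by ECT2. ANLN (anillin), a scaffold of the contractile ring, had 169.7, 145 and 119 CPM untreated and 229.7, 299.5 and 128 CPM under hypoxia. All 3 lines were higher, HCT116 most with a ratio of 2.07 (2.65 after TMM), and HCT8 under hypoxia lay within the untreated range. The blocked log2 fold change was 0.66 (SE 0.26, edgeR adjusted p = 0.224), and its range over the same omissions was 0.27 to 1.15. ECT2, the exchange factor that activates RhoA at the division plane, had 158, 108 and 164 CPM untreated and 208, 115 and 173 CPM under hypoxia, with a blocked log2 fold change of 0.32 (SE 0.17, edgeR adjusted p = 0.364).

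CDC20, the activator of the anaphase-promoting complex, had 262, 254 and 250.4 CPM untreated and 252, 206 and 207 CPM under hypoxia. The DLD1 value under hypoxia lay between the untreated ones, and after TMM HCT116 turned to a ratio of 1.04. UBE2C, the ubiquitin-conjugating enzyme of the same complex, had 53.6, 62.0 and 59.0 CPM untreated and 52.9, 92.5 and 44.7 CPM under hypoxia, with HCT116 the only line clearly higher, at a ratio of 1.49 (1.91 after TMM). TOP2A had 427, 192 and 499.8 CPM untreated and 463, 194 and 497 CPM under hypoxia, and its spread between lines was far wider than any difference with treatment. MKI67, the proliferation marker that coats mitotic chromosomes, had 532, 551 and 685 CPM untreated and 646, 530.1 and 660.0 CPM under hypoxia, with a ratio of 1.21 in DLD1 and of 0.962 and 0.963 in HCT116 and HCT8. After TMM the HCT116 ratio of MKI67 turned to 1.23.

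Companion genes of the same processes were compared in the same blocked fit, and edgeR called none of them. Over all genes of that fit 52.2% had a positive log2 fold change. Of 25 kinetochore genes outside the list, 23 had a negative log2 fold change, with a median of −0.56, and 13 had an unadjusted p under 0.05 as had 3884 of the 21045 genes tested (18.5%). SKA1, a microtubule-binding kinetochore protein, had 3.12, 0.957 and 2.22 CPM untreated and 0.749, 0.126 and 0.505 CPM under hypoxia, with a log2 fold change of −2.20 (SE 0.47, edgeR adjusted p = 0.0779). In counts these were 160, 50 and 117 against 43, 7 and 23, so that its values rest on few reads. By column total the median log2 ratio of the kinetochore genes lay at −0.21 for DLD1, −1.28 for HCT116 (−0.95 after TMM) and −0.43 for HCT8. The log2 fold change was negative for 9 of 9 further entry genes (median −0.29), 11 of 16 genes of the anaphase-promoting complex and exit (−0.29), 11 of 14 transcription regulators of mitotic genes (−0.28), 9 of 15 G1 cyclins and CDK inhibitors (−0.30), 6 of 8 condensin genes (−0.10) and 8 of 16 further spindle genes (−0.02). Of 11 cohesin genes, 7 were positive (median 0.14).

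HIEC6 was then set against the 3 untreated CRC lines, 1 library against 3, which asks how a normal line compared in these genes. HIEC6 had the higher values for most entry, Aurora and spindle genes and, by column total, the lower values for most checkpoint genes, but no member was called. EdgeR's quasi-likelihood test, which takes the spread of the 3 CRC lines for the lone library, called 0 of 18994 genes (0%), with 2994 genes (15.8%) and 11 members at an unadjusted p under 0.05. Those 11 members were AURKA, KIF4A, CDK1, ANLN, FOXM1, PLK1, KIF20A, INCENP, CKS2, KIF23 and PRC1, all higher in HIEC6. DESeq2 called 4206 genes (22.1%) and 14 members, all higher (8.99% of genes were called higher), which were these 11 with CCNB1, HMMR and DLGAP5, and limma-trend called 76 genes and 0 members. With the 3 hypoxia libraries added to the cancer side, edgeR called 474 genes (2.22%) and 3 members, KIF4A, AURKA and CDK1, all higher (1.03% of genes were called higher). The members' median log2 fold change was 0.52, with 32 positive and 7 negative. The median of all genes was −0.19, and 43.5% of them were positive.

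HIEC6 lay above all 3 CRC lines for 23 of the 39 genes by column total (background 22.7%) and below all 3 for 9 (43.1%). After TMM, with a factor of 0.875 for HIEC6, it lay above for 30 (31.4%) and below for 5 (34.1%), namely BUB1B, BUB3, TTK, SPC25 and MKI67. By column total HIEC6 was above all 3 lines for 6 of 6 Aurora and passenger genes, 8 of 8 spindle genes, 5 of 8 entry genes and 4 of 6 cytokinesis genes. On the same scale it was above for 0 of 11 checkpoint and kinetochore genes and below for 8 of them. This did not hold after TMM. HIEC6 then lay above all 3 lines for NDC80, NUF2, CENPA, CENPE and CENPF, and below for BUB1B, BUB3, TTK and SPC25. By column total HIEC6 exceeded every CRC line by at least 1.5-fold for 9 genes (background 9.96%). These were CDK1, PLK1, AURKA, KIF20A, KIF4A, INCENP, ANLN, CKS2 and FOXM1. The role groups were drawn up with values in view and were not tested.

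**Figure D4:**
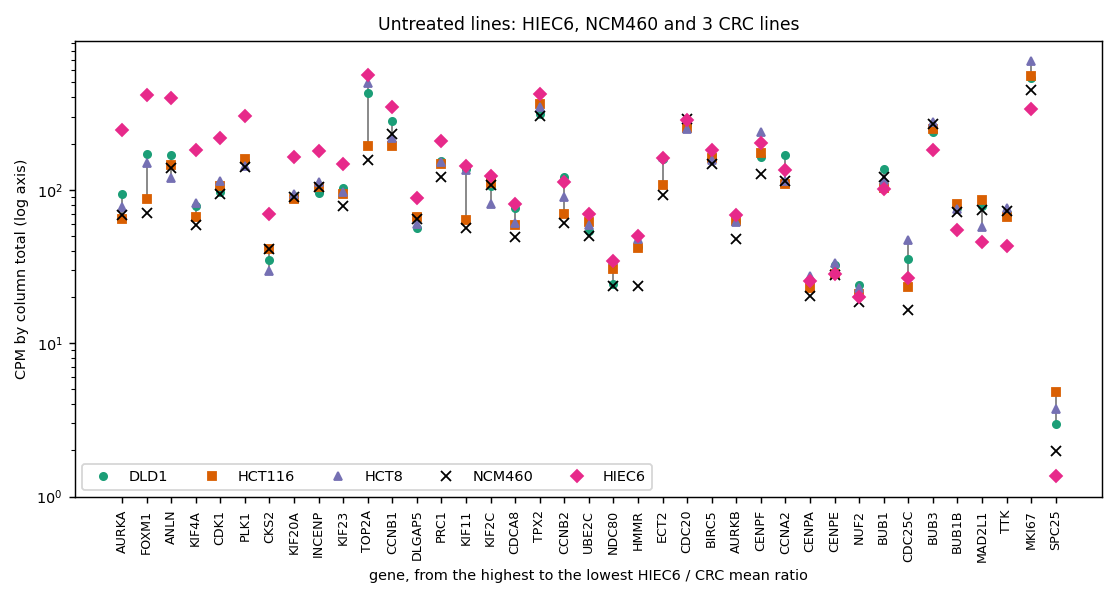
CPM by column total (log axis) of each gene in the 5 untreated libraries, ordered by the ratio of HIEC6 to the mean of the CRC lines, with a grey line over the range of the 3 CRC lines. HIEC6 (diamonds) stands above that range on the left, from AURKA at 244 CPM, and below it at the right end, down to SPC25 at 1.36 CPM.

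AURKA had 244 CPM in HIEC6 against 78.6 ± 14.6 CPM in the CRC lines (SD, n = 3 lines, as for the values that follow), with a log2 fold change of 1.90 (SE 0.31, edgeR adjusted p = 0.188). FOXM1 had 414 CPM against 135 ± 42.8 CPM, with a log2 fold change of 1.89 (SE 0.41, edgeR adjusted p = 0.227). The ratios to the CRC mean were 3.10 and 3.06, whereas NCM460, the other line labelled normal, had 69.0 CPM of AURKA and 70.4 CPM of FOXM1. ANLN had 397 CPM against 145 ± 25.1 CPM, with a log2 fold change of 1.71 (SE 0.34, edgeR adjusted p = 0.215). KIF4A had 181 CPM against 75.5 ± 8.45 CPM and a log2 fold change of 1.53 (SE 0.25, edgeR adjusted p = 0.190). NCM460 had 139 CPM of ANLN, within the range of the CRC lines, and 58.8 CPM of KIF4A, below it.

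CDK1 had 216 CPM in HIEC6 against 105 ± 8.02 CPM, with a log2 fold change of 1.30 (SE 0.26, edgeR adjusted p = 0.210). PLK1 had 304 CPM against 152 ± 8.93 CPM and a log2 fold change of 1.26 (SE 0.28, edgeR adjusted p = 0.227). CKS2 had 69.3 CPM against 35.2 ± 5.95 CPM and a log2 fold change of 1.23 (SE 0.38, edgeR adjusted p = 0.275). In all 3 genes of mitotic entry HIEC6 was the highest of the 8 libraries. CCNB1 had 348 CPM against 231 ± 45.3 CPM, and KIF20A had 164 against 90.9 ± 3.40 CPM. Several others stood nearer to the CRC lines. TOP2A had 563 CPM in HIEC6 against 373 ± 161 CPM, and CENPF had 201 against 191 ± 39.9 CPM, differences of less than 2 SD. CDC20 had 286 CPM against 256 ± 6.12 CPM, BIRC5 had 181 against 162 ± 6.34 CPM, AURKB had 68.9 against 62.3 ± 0.382 CPM and UBE2C had 69.5 against 58.2 ± 4.27 CPM. These 4 genes lay above every CRC line, yet by less than 1.5-fold over the CRC mean.

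At the other end stood checkpoint genes and MKI67. SPC25 had 1.36 CPM in HIEC6 against 3.84 ± 0.943 CPM, with a log2 fold change of −1.25 (SE 0.77, edgeR adjusted p = 0.469). MKI67 had 336 CPM, the lowest of the 8 libraries, against 589 ± 83.7 CPM, with a log2 fold change of −0.54 (SE 0.30, edgeR adjusted p = 0.442). TTK, the kinase that starts checkpoint signaling, had 43.3 CPM against 70.8 ± 4.42 CPM and a log2 fold change of −0.44 (SE 0.28, edgeR adjusted p = 0.480). BUB3 had 181 CPM against 255 ± 20.5 CPM, BUB1B had 54.6 against 77.4 ± 2.62 CPM, and BUB1 had 101 against 118 ± 16.5 CPM. However, BUB1 and 3 further genes (MAD2L1, NUF2 and CENPE) no longer lay below all CRC lines after TMM. NUF2 and CENPE then lay above all of them. MKI67 and AURKA, both of them transcripts of proliferating cells, lay on opposite sides of the CRC lines in this library.

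NCM460 differed little from HCT116 in these genes. Of the 39 genes, 2 were at least 1.5-fold lower in NCM460, SPC25 with 1.99 against 4.84 CPM and HMMR with 23.6 against 41.8 CPM, and 0 were higher (background 8.95% and 8.56%). By column total 31 of the 39 genes were lower in NCM460 than in untreated HCT116 and 8 higher, with a median log2 ratio of −0.17, where 52.1% of all genes were lower with a median of −0.02. Among those higher in NCM460 were CCNB1 with 230.0 against 194 CPM, CDC20 with 289 against 254 CPM, BUB1 with 121 against 103 CPM, BUB3 with 269.7 against 247 CPM and KIF20A with 89.7 against 87.6 CPM. Among those lower were CDK1 with 93.8 against 105 CPM, PLK1 with 141 against 159.7 CPM, AURKB with 47.5 against 62.7 CPM, BIRC5 with 147 against 160.4 CPM and CENPF with 127 against 173 CPM. MKI67 was also lower, with 449 against 551 CPM, as were TOP2A with 155 against 192 CPM and UBE2C with 50.2 against 62.0 CPM. CKS2 was nearly level at 40.9 and 41.3 CPM. Between NCM460 and HCT116 the mean absolute log2 difference over the 39 genes was 0.24, against 0.77 between NCM460 and HIEC6. The untreated CRC lines differed from each other by similar amounts, 0.22 between DLD1 and HCT8 and 0.30 in either pair with HCT116. A small difference in these genes was thus not particular to NCM460 and HCT116. When NCM460 joined HIEC6 as the group labelled normal, the members' median log2 fold change against the CRC lines was 0.20 in place of 0.52, and edgeR again called 0 members.

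The companion lists gave 0 calls in HIEC6 as well, by edgeR. Over all genes of that fit 43.5% had a positive log2 fold change. Of the 25 kinetochore genes outside the list, 18 had a positive log2 fold change in HIEC6 (median 0.38), as had 9 of 16 genes of the anaphase-promoting complex and exit (0.31), 11 of 16 further spindle genes (0.35), 7 of 9 entry genes (0.47), 5 of 8 condensin genes (0.41), 8 of 14 transcription regulators (0.13) and 13 of 15 G1 cyclins and CDK inhibitors (0.77). Cohesin genes were split, with 5 positive and 6 negative (median −0.12). In the same fit 5 of the 11 checkpoint and kinetochore members were negative. MYBL2, the partner of the MuvB complex in mitotic transcription, had 382 CPM in HIEC6 and 101 to 225 CPM in the other untreated libraries.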

How the data were processed

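Human cell lines were profiled by total RNA sequencing after removal of ribosomal RNA. The authors deposited raw counts per gene, without normalization, in 1 table with 8 columns, 1 per library (0 columns left aside). The paper's methods name GRCh37.p13, whereas the submitters' processing notes name HISAT2 2.0.4 and GRCh38, and the counter, the strand setting and the treatment of reads with several matches are not given in the sources used here. Columns were assigned to lines and treatments by the sample labels.

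Counts were divided by the column total to give CPM, and log2 ratios within a line used a pseudocount of 0.5 CPM and a fold of 1.5. Hypoxia was compared with no treatment over the 6 CRC libraries, and HIEC6 with the 3 untreated CRC lines, with edgeR 4.0.16 (glmQLFit and glmQLFTest, TMM) under R 4.3.3. Genes entered a fit when 2 or more of its libraries had 10 or more counts, and calls were made at a Benjamini-Hochberg adjusted p under 0.05. A standard error is the size of the log2 fold change over the root of the F statistic. Replicate numbers pair the hypoxia comparison because they stand for the same cell line. Deviations from the group means correlated at 0.837, 0.853 and 0.818 within lines. Between lines they correlated at −0.61 to −0.0597, values that the subtraction of the group means itself pushes to the negative side. The alternatives were the line as a block, upper-quartile normalization, DESeq2 1.42.0, limma-trend (limma 3.58.1), other filters on low counts, all 8 libraries in 1 fit, each library left out, other pseudocounts and a fold of 2. The counts of genes with 1 direction in every line, after TMM and without HCT116, were added after seeing the data.

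The members and lists were chosen with earlier results of these data known, and the role groups were made after values were seen. Values in every library are given for 16 members set by name. For the 3 highest and 3 lowest by log2 fold change in each comparison (in the blocked fit for hypoxia), values are given within that comparison. In that of HIEC6 the CRC lines are given as a mean. The procedure was run on simulated data for the blocked hypoxia fit and for the HIEC6 fit. For HIEC6 the simulated spread between libraries was smaller than that in the data, so the simulation cannot tell how that fit performs here. Promoter windows are from RefSeq (GRCh38.p14), and transcript lengths and exon overlaps from GENCODE release 44 lifted to GRCh37, with no coordinates converted. Total counts were 45519306 to 57374239, and intervals cover counting error only.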

Additional observations from a re-analysis of the deposited data

Results flagged for a closer look

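For 9 genes the lines moved in opposite directions under hypoxia beyond counting error both by column total and after TMM, which was not tested, since each line has 1 library per condition. Only the 39 members were examined in this way, so the share over all genes is not known. At these counts the interval is narrow (0.948 to 0.978 for MKI67 in HCT8), and small differences pass. By column total the ratio of CPM under hypoxia to untreated was 1.18 in DLD1 and 1.27 in HCT8 but 0.629 in HCT116 for CDC25C. FOXM1 had ratios of 1.06 in DLD1, 0.536 in HCT116 and 0.617 in HCT8, and UBE2C had 1.49 in HCT116 but 0.757 in HCT8. For PLK1 it was 1.08 in DLD1 and 0.732 in HCT8, and for MKI67 1.21 and 0.963. DLD1 stood above the other 2 lines for BUB1B (1.06 against 0.661 in HCT116 and 0.831 in HCT8), NDC80 (1.11 against 0.517 and 0.791) and KIF11 (1.11 against 0.684 and 0.858). KIF20A had 1.11 in DLD1 and 1.09 in HCT116 against 0.873 in HCT8. After TMM the HCT116 values of CDC25C, FOXM1, NDC80, KIF11 and BUB1B remained below 1. HMMR, DLGAP5 and INCENP met this by column total alone, since TMM turned their HCT116 ratios from 0.879, 0.819 and 0.799 to 1.13, 1.05 and 1.02.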

How the results depend on the processing

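In the hypoxia comparison 0 members were called under each of the 18 alternatives, and the members' median log2 fold change was −0.03 without the block and −0.06 with the replicate block on the cell line, where pairing comes from the line itself. With single libraries or lines left out it lay between −0.11 and 0.07. The block changed no call on a member. In the HIEC6 comparison the members called rose from 0 to 14 with DESeq2 and to 3 with the hypoxia libraries added. The median of 0.52 moved to 0.36 with upper-quartile normalization, which moved that of all genes from −0.19 to −0.35, to 0.61 with the hypoxia libraries added and to 0.20 with NCM460 added, and lay between 0.47 and 0.55 with 1 CRC line left out. Within HCT116, TMM moved the median log2 ratio from −0.34 to 0.0186, the genes at least 1.5-fold higher from 1 to 3 and those lower from 13 to 3, and at 2-fold 2 were lower. In HCT8 at 2-fold 0 were lower in place of 4, or 1 with a pseudocount of 0.1 CPM. Members higher in every line numbered 5, against 10 after TMM and 9 without HCT116. The causes were not tested. SPC25 rests on 24 to 253 counts per library, and its HCT116 hypoxia value on the fewest. Leaving out HCT8, the blocked fit called 6 genes in all, and leaving out HCT116 it called 738.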

Other observations

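Across the 39 genes, transcript length and the log2 ratio under hypoxia had a Spearman correlation of 0.33 in DLD1, 0.14 in HCT116 and 0.27 in HCT8. This is a description over genes that share libraries, with canonical transcripts from 616 bases (CKS2) to 12716 bases (MKI67).

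Exons of other annotated genes cover more than 10% of the exon bases of 4 members, PLK1 (12.8%), BUB1B (10.2%), PRC1 (61.9%) and FOXM1 (15.9%). The genes over PLK1 and FOXM1 and 1 of the 2 over PRC1 lie on the opposite strand, where reads cannot be assigned while the strand setting is unknown. Those over BUB1B lie on its own strand, where the strand setting would not separate the reads.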
